A study of Homo sapiens with 9 samples.

Results

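Interferon-stimulated genes and the sensors of foreign RNA were examined in TC32 cells in which the EWS::FLI1 fusion was silenced. The members were a list of 49 genes taken by name: RNA sensors, oligoadenylate synthetases, transcription factors of the interferon response, IFIT proteins, other antiviral effectors, ISG15 with ubiquitin-related genes, and a set of IFI genes with XAF1 and CXCL10. No measured value entered the rule, but the list was chosen with earlier results on these libraries known. Of the 49 genes, 48 had a row among the 60603 genes of the count table (OAS1 was not analysed here), and 44 passed the filter on low counts and were tested. IFI27, IFI44, IFI44L and CXCL10 did not pass it. XAF1 and RSAD2 had fewer than 10 counts in every control library and passed only through the siEF libraries, in which they were high. Their tests are therefore not read as results, and counts are also given without them.

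Cells detect double-stranded RNA with helicases in the cytoplasm (RIG-I, MDA5) and with a toll-like receptor in endosomes (TLR3), which signal to the interferon genes. Secreted type I interferon binds its receptor and activates a transcription factor complex that contains STAT2 and IRF9 and binds the interferon-stimulated response element (ISRE), whereas interferon gamma acts through the gamma-activated sequence (GAS) and strongly induces IRF1 and the guanylate-binding proteins. Induced proteins then block viral entry, translation and replication, degrade RNA, or feed back on the response. Many of these genes also have a basal level in cells without interferon. An siRNA is itself a short double-stranded RNA.

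TC32 is a single established Ewing sarcoma line, labelled wild type, that carries EWS::FLI1, a fusion of EWSR1 with the ETS factor FLI1. RNA was sequenced from 3 groups of 3 biological replicates, all grown with 10% FBS, labelled 30 h and labelled batch 1. In siEF the cells were given an siRNA that spans the junction of the fusion, and in siNEG an siRNA without a specific target, while media stands for cells that by their label had none. The labels say that cells were plated on the siRNA, and they give polyA RNA as the molecule.

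Libraries held between 20727706 (siEF replicate 2) and 33134581 expected counts. In siEF, the share of counts held by the 10 most abundant genes was 12.3% to 12.9%, whereas it was 5.78% to 6.6% in the 6 control libraries. FLI1, whose 3′ part is in the fusion, was at 37.8 ± 2.0 CPM (counts scaled to 1e6 of the library total after edgeR's TMM factors; SD, n = 3) in siEF, 48.4 ± 0.315 CPM in siNEG and 57.9 ± 1.65 CPM in media (SD, n = 3 each). NR0B1, a well-known EWS::FLI1 target, was at 17.6 ± 2.35, 137 ± 4.98 and 177 ± 12.7 CPM (SD, n = 3 each). The 5 Ewing sarcoma markers CD99, NKX2-2, NR0B1, STEAP1 and CCND1 summed to between 326 and 346 CPM in siEF, between 2191 and 2311 CPM in siNEG and between 2373 and 2491 CPM in media, and 4 of them, all but CD99, were called lower in siEF than in siNEG. The 7 leukocyte markers used summed to between 6.51 and 9.0 CPM in siEF, between 1.39 and 3.70 CPM in siNEG and between 2.03 and 2.60 CPM in media. CD68, a lysosomal protein made by many cells, held most of that sum in siEF, CD3E had 0 counts in all 9 libraries, and PTPRC had 0 counts in the siEF libraries. The 4 endothelial markers summed to between 4.44 and 5.58 CPM in siEF, between 6.95 and 7.66 CPM in siNEG and between 5.39 and 6.32 CPM in media. The 3 plasmacytoid dendritic cell markers summed to between 112 and 119 CPM in siEF, between 53.6 and 58.1 CPM in siNEG and between 89.0 and 96.8 CPM in media. Nearly all of this was TCF4, a transcription factor made by many cell types, which was called higher in siEF than in siNEG (log2 fold change 1.07, adjusted P = 1.38e-11 in edgeR). IL3RA had 20, 6 and 12 counts in siEF, 2, 6 and 2 in siNEG and 2, 1 and 6 in media, and CLEC4C, the defining marker, had 0 counts in all 9 libraries. The part of these markers in the results was not tested. In bulk RNA, fewer cells with a transcript and less of it per cell cannot be told apart.

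Promoter sequences were available from RefSeq (GRCh38.p14, 250 bases before to 50 after the start) for 36 of the 48 members with a row. They were searched on both strands for the ISRE written as GAAANNGAAA, for GAS written as TTCNNNGAA and for a pair of GGAA units written as GGAAGGAA, the unit that EWS::FLI1 binds in repeats. Matches may overlap each other. The ISRE letters were found for 23 of the 36 members (63.9%), for 3.91% of the 10942 tested genes with a promoter and in 3.57% of all 35116 promoters. GAS letters were found for 8 of 36 members (22.2%), for 8.48% of the tested genes and in 7.66% of all promoters, and the GGAA pair for 3 of 36 members (8.33%), for 4.93% of the tested genes and in 3.67% of all promoters. The windows that follow show the matches of the motif named on each line in capitals. They are written 5′ to 3′ on the strand of the gene, so that a match on the other strand reads as its reverse complement. They were picked from members that hold the letters: 3 IFIT neighbours that moved in different directions, 2 genes that rose (GBP1 and BST2), 1 that fell (EIF2AK2), 1 that did not pass the test (ISG15), and 2 transcription factors with GAS letters (IRF1 and IRF9). HERC6, IRF1, IRF9, SAMD9L and STAT2 were also called higher in siEF than in siNEG, and their promoters held no ISRE letters. Their log2 fold changes, 1.27 to 2.52, were above those of GBP1 (1.17) and BST2 (1.04). IFIT3 (1.94) and ISG20 (1.43) were called higher and held ISRE letters.
IFIT3, chr10:89327829-89327896, plus strand, ISRE: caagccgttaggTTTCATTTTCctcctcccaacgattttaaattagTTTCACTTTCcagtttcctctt
IFIT3, second start, chr10:89332423-89332499, plus strand, ISRE: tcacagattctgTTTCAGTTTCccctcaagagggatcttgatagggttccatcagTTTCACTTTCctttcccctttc
IFIT1, chr10:89392495-89392541, plus strand, ISRE: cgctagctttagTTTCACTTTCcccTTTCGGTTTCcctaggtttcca
IFIT5, chr10:89414511-89414585, plus strand, ISRE: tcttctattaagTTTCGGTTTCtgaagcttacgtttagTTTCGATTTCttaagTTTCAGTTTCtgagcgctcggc
GBP1, chr1:89065314-89065347, minus strand, ISRE: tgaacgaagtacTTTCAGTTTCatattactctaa
BST2, chr19:17405733-17405772, minus strand, ISRE: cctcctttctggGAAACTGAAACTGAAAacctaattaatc
EIF2AK2, chr2:37156965-37156998, minus strand, ISRE: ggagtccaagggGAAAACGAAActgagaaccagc
ISG15, chr1:1013372-1013411, plus strand, ISRE: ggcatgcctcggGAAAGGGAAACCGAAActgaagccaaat
IRF1, chr5:132490877-132490909, minus strand, GAS: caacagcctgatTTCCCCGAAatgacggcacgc
IRF9, chr14:24161190-24161222, plus strand, GAS: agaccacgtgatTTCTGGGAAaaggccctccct
The capitals in BST2 and in ISG15 each hold 2 matches that overlap. The BST2 window also holds a GAS match, from base -136, that is not marked. A match describes letters and not a bound site.

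Silencing of EWS::FLI1 was compared with the nonspecific siRNA to ask how these genes moved when the fusion was lowered. Loss of the fusion and any other effect of the siRNA used in siEF fall together in this design and cannot be told apart. A gene was called where edgeR's quasi-likelihood test gave an adjusted P under 0.01, over all 16093 tested genes, and the log2 fold change (log2FC) was beyond 1 in either direction. In siEF against siNEG, 14 of the 44 tested members (31.8%) were called higher, where 17.1% of all tested genes were, and 2 (4.55%) were called lower, where 11.7% of all were. By adjusted P alone, 21 members (47.7%) were higher against 33.6% of all tested genes, 8 (18.2%) were lower against 31.7%, and 15 did not pass. The median log2FC of the 44 members was 0.36, and that of all tested genes was 0.05. Without the 835 genes that passed the filter only through siEF, XAF1 and RSAD2 among them, 13 of 42 members (31.0%) were called higher beside 13.6% of all, 2 (4.76%) were called lower beside 12.3%, and the medians were 0.26 and -0.01. The members did not move as a block. GBP2, HERC6, IFITM2, IRF1, IFIT3, IRF9, IFIT2, OAS2, SAMD9L, ISG20, STAT2, GBP1 and BST2 were the 13 called higher, USP18 and IFIT5 were called lower, and the widely used response genes ISG15 and DDX58 had log2FC of 0.04 and 0.02. The members were chosen with earlier results on these libraries known, so the shares describe the list and are no independent evidence of its direction.

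**Figure D1:**
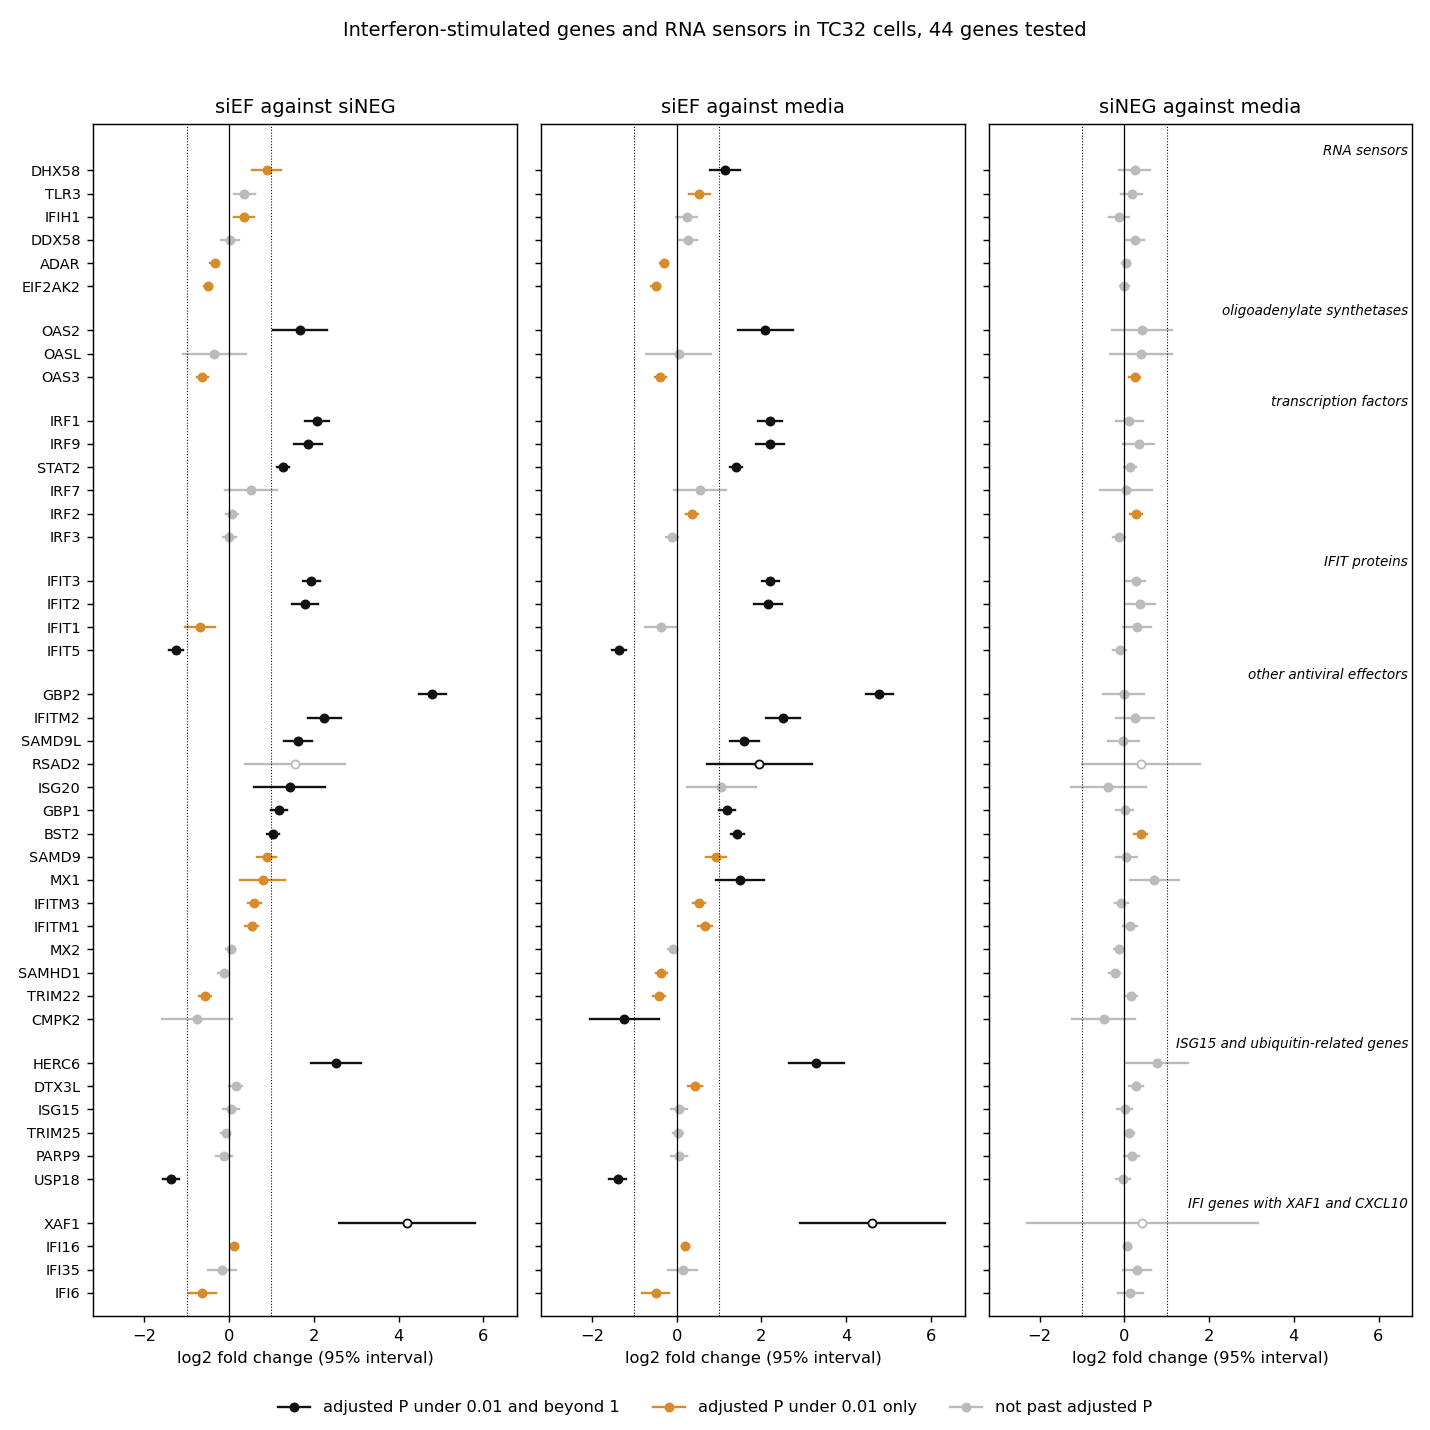
Log2 fold changes (x axis) with 95% intervals of the 44 tested genes (y axis, grouped by role) in siEF against siNEG, siEF against media and siNEG against media, with dotted lines at 1 and -1. Black marks the called genes, orange those past the adjusted P alone and grey the rest, and open points mark XAF1 and RSAD2, which passed the filter on low counts only through siEF: 14 genes are black on the right and 2 on the left in siEF against siNEG, and no gene is black in siNEG against media.

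Among the 6 RNA sensors and the genes that act directly on double-stranded RNA, none was called in siEF against siNEG, 2 were higher and 2 were lower by adjusted P alone, and 2 did not pass. Of all tested genes, 17.1% were called higher and 11.7% lower, and by adjusted P alone 33.6% were higher and 31.7% lower. DHX58 encodes LGP2, a helicase without a signalling domain that modulates the other sensors. It was at 6.03, 4.996 and 4.73 CPM in siEF replicates 1, 2 and 3, at 2.56, 3.09 and 2.85 CPM in siNEG and at 2.32, 2.38 and 2.48 CPM in media. The siEF libraries lay above all the others, and the log2FC against siNEG was 0.89 (SE 0.16, adjusted P = 1.10e-04). IFIH1 encodes MDA5, the sensor of long double-stranded RNA. Its 3 siEF libraries were at 9.61, 11.1 and 12.1 CPM, the siNEG libraries at 9.45, 8.66 and 7.53 CPM and the media libraries at 9.70, 8.63 and 9.60 CPM. The siEF range lay just above that of siNEG and overlapped that of media, with a log2FC against siNEG of 0.36 (SE 0.11, adjusted P = 0.00937), close to the threshold. It did not pass without siEF replicate 2 or 3, siNEG replicate 2 or 3, or any 1 media library, with adjusted P up to 0.065.

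DDX58, the gene of RIG-I, which recognises RNA with a triphosphate end, gave 8.85, 10.53 and 9.73 CPM in siEF, 10.49, 9.02 and 9.20 CPM in siNEG and 7.64, 8.09 and 8.31 CPM in media. The siEF and siNEG ranges overlapped, and the 95% interval of the log2FC ran from -0.20 to 0.23 (adjusted P = 0.891). TLR3, the endosomal receptor, was at 12.1, 9.80 and 10.3 CPM in siEF, 7.87, 9.11 and 8.17 CPM in siNEG and 6.40, 7.90 and 7.96 CPM in media. All 3 siEF libraries were above all the others, and the log2FC of 0.36 (SE 0.12, adjusted P = 0.0104) missed the threshold narrowly. Without siEF replicate 2 or media replicate 1 it passed, with adjusted P down to 0.00713.

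The 2 most abundant genes of this group per kilobase of exon were lower in siEF. EIF2AK2 encodes PKR, the kinase that halts translation when it binds double-stranded RNA. It was at 114, 110 and 113 CPM in siEF, 153, 163 and 160 CPM in siNEG and 149, 163 and 165 CPM in media, so that no siEF library reached a control library. Its level in siEF was 70.9% of that in siNEG (log2FC -0.50, SE 0.05, adjusted P = 8.99e-08). ADAR, the adenosine deaminase that edits double-stranded RNA and keeps the cell's own RNA from the sensors, was at 323, 323 and 321 CPM in siEF, 381, 419 and 424 CPM in siNEG and 390, 402 and 401 CPM in media. Again the siEF libraries lay below all the controls, with a log2FC of -0.34 (SE 0.04, adjusted P = 3.66e-06).

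The oligoadenylate synthetases make the messenger that activates RNase L, and the 3 with a row did not move together. OAS3 (chr12:112938051-112976460, plus strand) and OAS2 (chr12:112978395-113011723, plus strand) are neighbours, with 1934 bases between them. OAS3, the form with high affinity for long RNA, was at 34.0, 35.6 and 32.9 CPM in siEF, 51.7, 56.1 and 51.1 CPM in siNEG and 43.3, 47.1 and 43.5 CPM in media. It fell in siEF to 64.5% of its siNEG level (log2FC -0.63, SE 0.06, adjusted P = 8.98e-08). OAS2 was far less abundant per kilobase of exon (0.0835 CPM per kilobase in siNEG, where OAS3 was at 2.93). It had 3.47, 3.09 and 2.47 CPM in siEF, 1.11, 0.973 and 0.737 CPM in siNEG and 0.588, 1.05 and 0.454 CPM in media, and its siEF libraries were above every control. It rose 3.19-fold over siNEG (log2FC 1.67, SE 0.30, adjusted P = 8.54e-05). OASL, a catalytically inactive relative that acts on RIG-I, had 0.759, 0.833 and 0.446 CPM in siEF, 0.853, 0.914 and 0.801 CPM in siNEG and 0.522, 0.761 and 0.664 CPM in media. The groups overlapped, and the interval of the siEF against siNEG log2FC ran from -1.10 to 0.39 (adjusted P = 0.377).

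Of the 6 transcription factors, 3 were called higher in siEF than in siNEG and none lower, where 17.1% and 11.7% of all tested genes were. IRF1 (ENSG00000125347.14) activates interferon genes and class I antigen presentation and is itself a rapid target of interferon gamma. It was at 22.5, 22.3 and 21.9 CPM in siEF, 6.10, 5.51 and 4.17 CPM in siNEG and 5.49, 3.81 and 5.24 CPM in media. The siEF libraries were tightly grouped and stood well above the controls (4.22-fold over siNEG, log2FC 2.08, SE 0.13, adjusted P = 3.74e-10). IRF9 (ENSG00000213928.8), the DNA-binding subunit of the complex formed after type I interferon, gave 11.1, 10.1 and 11.5 CPM in siEF, 2.72, 2.98 and 3.27 CPM in siNEG and 2.78, 1.75 and 2.58 CPM in media. It rose 3.65-fold (log2FC 1.87, SE 0.15, adjusted P = 9.88e-09). The expected counts of IRF9 were not whole numbers in any of the 9 libraries, so RSEM divided some of its reads between genes. STAT2 (ENSG00000170581.14), the partner of IRF9, was at 47.0, 44.8 and 49.6 CPM in siEF, 20.8, 19.2 and 18.9 CPM in siNEG and 18.3, 18.1 and 17.0 CPM in media. No control library came near the siEF range, and the rise was 2.40-fold (log2FC 1.27, SE 0.07, adjusted P = 2.47e-11).

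The other 3 factors did not pass the test in siEF against siNEG. IRF3, which the sensors activate by phosphorylation and which is made constitutively, was at 42.8 ± 1.93 CPM in siEF and 42.4 ± 1.11 CPM in siNEG (SD, n = 3 each), and its log2FC of 0.01 had an interval from -0.14 to 0.16. IRF2, known as an antagonist of IRF1, had a log2FC of 0.08. IRF7, the factor that amplifies interferon alpha production, was low in all groups (1.79 ± 0.613 CPM in siEF and 1.23 ± 0.183 CPM in siNEG; SD, n = 3 each), and its log2FC of 0.52 had an interval from -0.08 to 1.12. A change of the size seen in IRF7 was thus not resolved with these libraries.

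**Figure D2:**
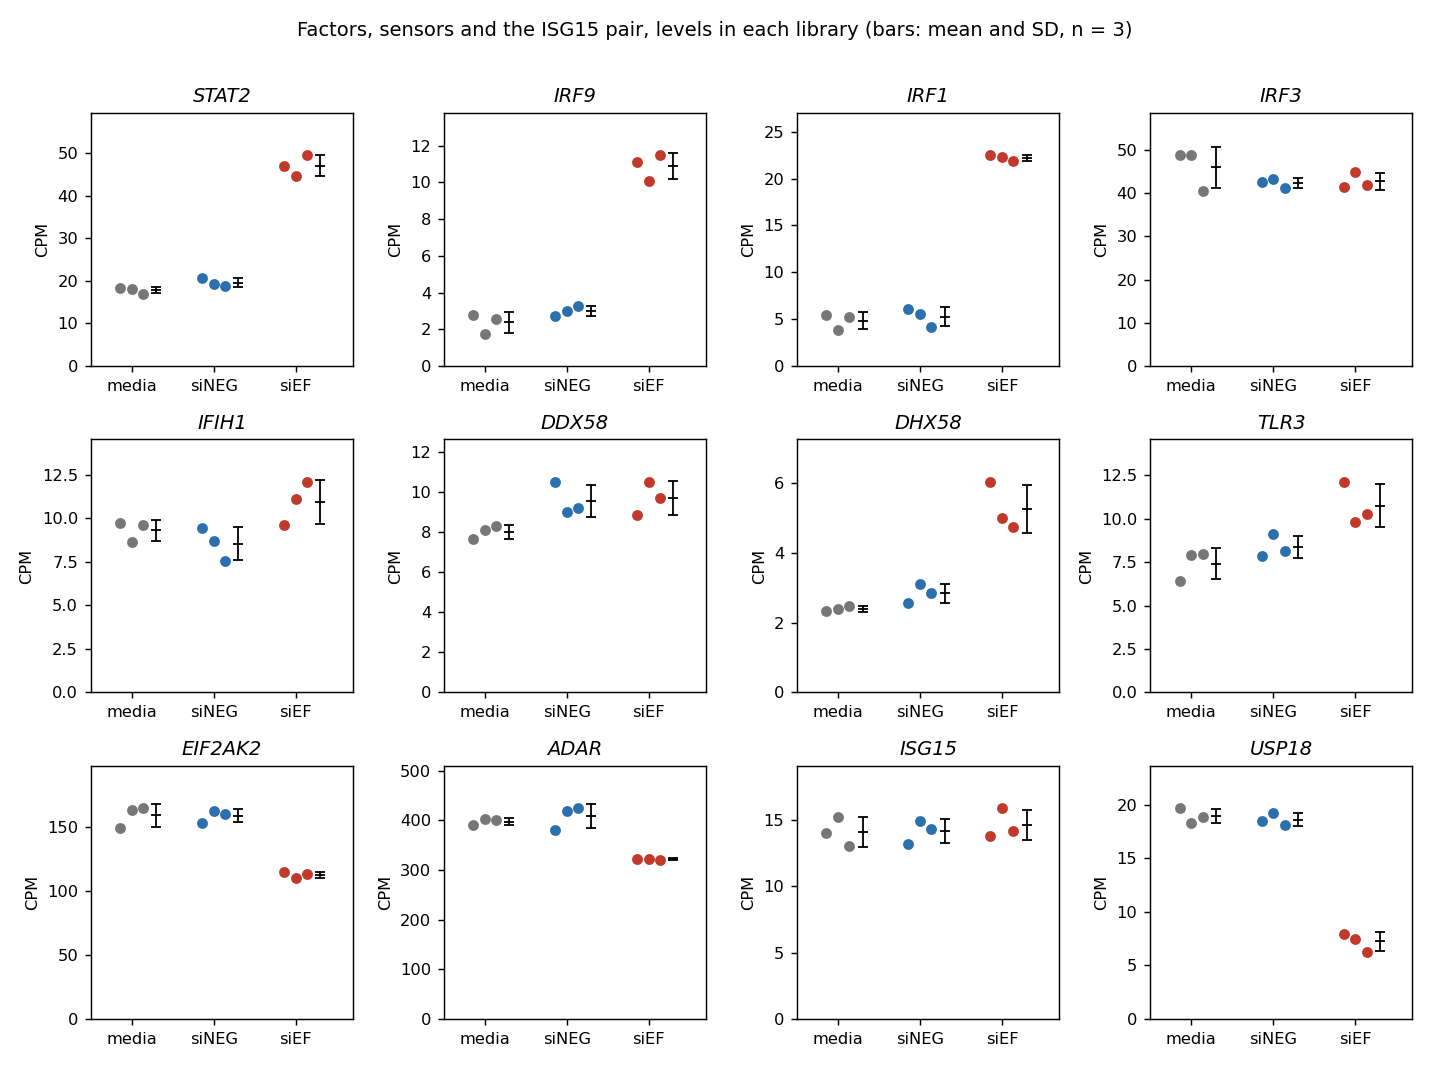
CPM (y axis, from 0) of 12 genes in each of the 3 media, 3 siNEG and 3 siEF libraries (x axis); points are libraries and black bars the mean and SD. STAT2, IRF9 and IRF1 are higher in all siEF libraries (IRF1 near 22.2 CPM against 5.26 CPM in siNEG), EIF2AK2, ADAR and USP18 are lower in all of them, and DDX58, IRF3 and ISG15 overlap with siNEG.

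The 4 IFIT genes lie in a row on the plus strand of chromosome 10 and encode proteins that bind viral RNA ends and block its translation. In this row IFIT2 (chr10:89283694-89309271) and IFIT3 (chr10:89327307-89377473) rose in siEF against siNEG, and the next 2 genes, IFIT1 (chr10:89392546-89406487) and IFIT5 (chr10:89414568-89421605), fell. IFIT2 was at 12.9, 12.2 and 14.2 CPM in siEF, 4.74, 3.80 and 2.85 CPM in siNEG and 2.94, 3.01 and 2.90 CPM in media. IFIT3, which stabilises IFIT1 in a shared complex, was at 38.3, 35.4 and 40.5 CPM in siEF, 11.8, 9.43 and 8.62 CPM in siNEG and 8.10, 8.28 and 8.31 CPM in media. In both genes the siEF libraries were far above the controls, with a rise over siNEG of 3.46-fold for IFIT2 (log2FC 1.79, SE 0.15, adjusted P = 1.05e-08) and 3.84-fold for IFIT3 (log2FC 1.94, SE 0.10, adjusted P = 1.35e-11).

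IFIT1, the member that binds capped RNA lacking ribose methylation of its first nucleotide, was at 2.49, 2.89 and 3.15 CPM in siEF, 5.21, 3.92 and 4.58 CPM in siNEG and 3.89, 3.36 and 3.88 CPM in media. All siEF libraries were below all the controls, and the level was 62.3% of that in siNEG (log2FC -0.68, SE 0.17, adjusted P = 0.00156, and 0.0101 without siEF replicate 1). Against media, IFIT1 did not pass (log2FC -0.38, SE 0.17, adjusted P = 0.0537). Its log2FC in siNEG against media was 0.30 and did not pass either. IFIT5, which binds RNA as a monomer, gave 14.2, 12 and 13.3 CPM in siEF, 31.5, 30.7 and 31.9 CPM in siNEG and 30.4, 36.0 and 35.2 CPM in media. It was called lower at 42.1% of its siNEG level (log2FC -1.25, SE 0.08, adjusted P = 4.35e-10). As printed above, the promoters of IFIT3, IFIT1 and IFIT5 each held ISRE letters, 2 matches for IFIT1, 2 for each start of IFIT3 and 3 for IFIT5, although IFIT3 rose and IFIT1 and IFIT5 fell. Over the tested members with a promoter entry, 9 of the 19 with ISRE letters were higher by adjusted P alone, 5 were lower and 5 did not pass. Of the 13 without those letters, 7 were higher, XAF1 among them, 1 was lower and 5 did not pass. Of all tested genes, 33.6% were higher and 31.7% were lower by this rule. By the call rule, 4 of the 19 with ISRE letters were higher and 1 was lower. Of the 13 without them, 6 were called higher, XAF1 among them, and 0 were called lower. Of all tested genes, 17.1% were called higher and 11.7% lower.

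**Figure D3:**
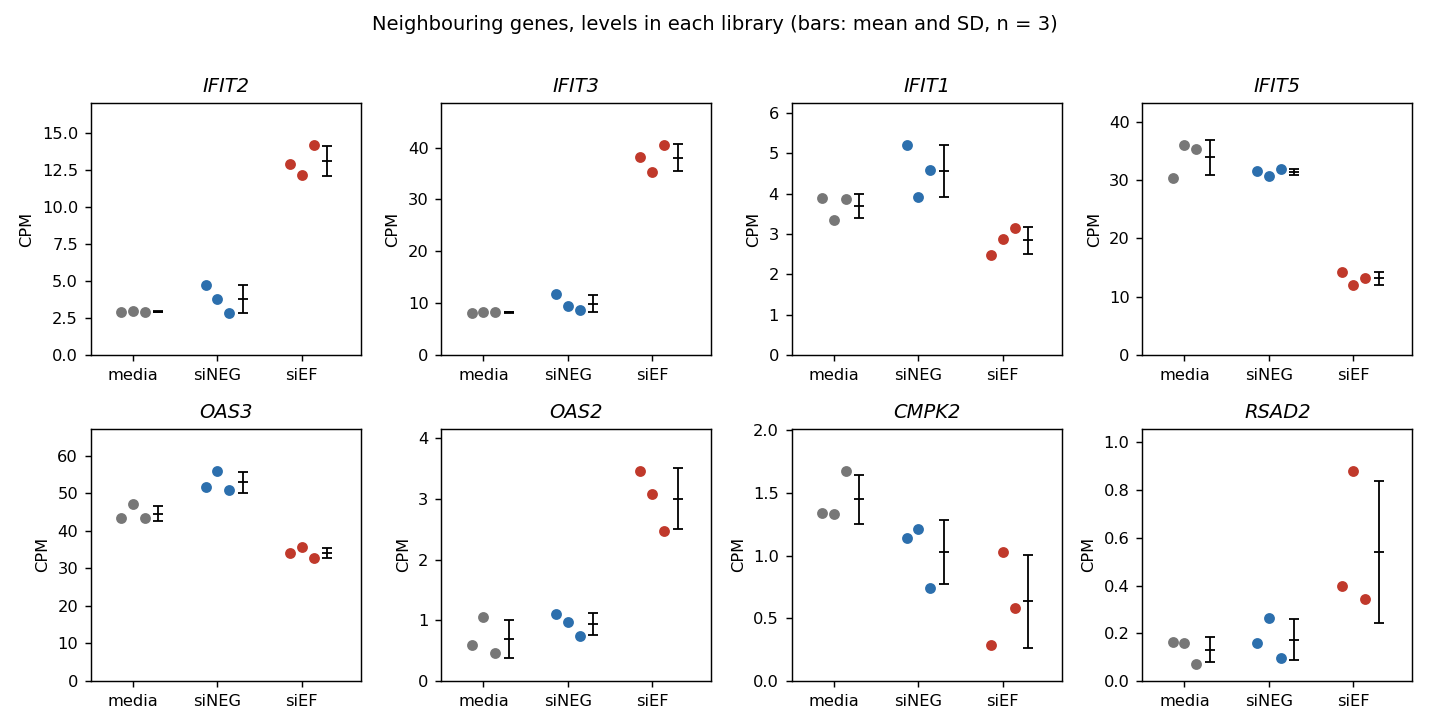
CPM (y axis, from 0) of 8 genes that neighbour each other on chromosome 10 (IFIT2, IFIT3, IFIT1, IFIT5), chromosome 12 (OAS3, OAS2) and chromosome 2 (CMPK2, RSAD2) in the 3 media, 3 siNEG and 3 siEF libraries (x axis); points are libraries and black bars the mean and SD. IFIT2, IFIT3 and OAS2 are highest in siEF, and their neighbours IFIT1, IFIT5 and OAS3 are lowest there.

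Of the 15 other antiviral effectors, 6 were called higher in siEF than in siNEG and none lower, where 17.1% and 11.7% of all tested genes were. By adjusted P alone 10 were higher, 1 was lower and 4 did not pass, where 33.6% of all were higher and 31.7% lower. The guanylate-binding proteins are GTPases that attack vacuoles and bacteria in the cytoplasm and are classic products of interferon gamma signalling. GBP2 (ENSG00000162645.13) had the largest log2FC of the 44 tested members. It rose from 1.48, 0.796 and 1.47 CPM in siNEG and 1.40, 1.27 and 1.08 CPM in media to 32.6, 32.8 and 38.7 CPM in siEF. This was a 27.9-fold difference from siNEG (log2FC 4.80, SE 0.15, adjusted P = 5.99e-14), on 120 counts in the 3 siNEG libraries and 2700 in the 3 siEF libraries. Its neighbour GBP1, 40771 bases away on the same strand of chromosome 1, was at 32.1, 30.1 and 36.5 CPM in siEF, 15.6, 14.8 and 13.4 CPM in siNEG and 14.5, 13.5 and 15.7 CPM in media. The siEF libraries were again above all the controls, but the rise was 2.26-fold (log2FC 1.17, SE 0.09, adjusted P = 2.62e-09). The counts of GBP1 were fractional in all 9 libraries, so reads were divided with similar genes and its level is uncertain to that extent.

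The 3 IFITM proteins of chromosome 11, which sit in membranes and block the fusion of viruses, all rose, by different amounts. IFITM2 was at 7.44, 8.37 and 6.72 CPM in siEF, 1.2, 1.8 and 1.70 CPM in siNEG and 1.34, 1.43 and 1.152 CPM in media, a 4.77-fold rise over siNEG (log2FC 2.25, SE 0.19, adjusted P = 1.15e-08). IFITM3 and IFITM1 were at 118 ± 2.51 and 35.4 ± 1.47 CPM in siNEG (SD, n = 3 each), or 41.5 and 21.2 CPM per kilobase of exon where IFITM2 was at 0.9749, and rose by 0.60 and 0.53 on the log2 scale. All 3 had fractional counts in all 9 libraries, so the division of reads among these close paralogs is uncertain. SAMD9L and SAMD9, neighbours on chromosome 7 that restrict translation during poxvirus infection, both rose. SAMD9L was at 7.80, 6.32 and 8.43 CPM in siEF, 2.24, 2.59 and 2.5 CPM in siNEG and 2.22, 2.73 and 2.51 CPM in media (log2FC against siNEG 1.62, SE 0.16, adjusted P = 8.78e-08), and SAMD9 rose by 0.89 on the log2 scale.

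BST2 encodes tetherin, which holds budding virions at the cell surface. It was at 41.3, 42.0 and 45.7 CPM in siEF, 19.998, 21.6 and 21.1 CPM in siNEG and 17.3, 15.9 and 14.6 CPM in media, so the 3 groups did not overlap. Its log2FC against siNEG was 1.04 (SE 0.07, adjusted P = 8.62e-10), just beyond the limit of 1, and it was 0.99 without siEF replicate 3 and 0.98 without siNEG replicate 1, which ended the call. ISG20, an exonuclease of single-stranded RNA, was low, with 0.614, 0.98 and 1.1 CPM in siEF, 0.348, 0.383 and 0.256 CPM in siNEG and 0.392, 0.508 and 0.384 CPM in media. The siEF libraries lay above the controls (log2FC 1.43, SE 0.39, adjusted P = 0.00358). The call rested on single libraries: without siEF replicate 2, siEF replicate 3, siNEG replicate 1 or siNEG replicate 3 it no longer passed, with log2FC of 1.365, 1.24, 1.43 and 1.27.

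The dynamin-like GTPases MX1 and MX2 are neighbours on chromosome 21. MX1, the best known inhibitor of influenza virus among them, was at 3.11, 2.79 and 2.43 CPM in siEF, 1.83, 1.8 and 1.154 CPM in siNEG and 1.21, 0.984 and 0.733 CPM in media. It rose by 0.80 over siNEG (SE 0.25, adjusted P = 0.00935) and by 1.501 over media on the log2 scale (SE 0.27, adjusted P = 8.23e-05), and only the second of these was a call. Against siNEG it did not pass without siEF replicate 1, 2 or 3, siNEG replicate 1, 2 or 3 or media replicate 2, with adjusted P up to 0.0461. MX2, which acts on the nuclear import of retroviruses, was at 70.0 ± 2.56 CPM in siEF and 68.4 ± 2.23 CPM in siNEG (SD, n = 3 each), with a log2FC of 0.04 and an interval from -0.07 to 0.14. TRIM22, an antiviral ubiquitin ligase, fell by 0.57 on the log2 scale (adjusted P = 7.81e-07). SAMHD1, which depletes nucleotides, had a log2FC of -0.13 (adjusted P = 0.0674).

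RSAD2 encodes viperin, which makes a chain-terminating nucleotide, and CMPK2, a nucleotide kinase that supplies its substrate, starts beside it on the other strand of chromosome 2. RSAD2 had 11, 18 and 10 counts in siEF, 5, 9 and 3 in siNEG and 5, 5 and 2 in media. RSAD2 passed the filter only through siEF, so its fold changes are not given here and are not read as a result. CMPK2 had 8, 21 and 17 counts in siEF, 36, 41 and 23 in siNEG and 41, 42 and 48 in media. The CPM ranges of siEF and siNEG overlapped, and the log2FC was -0.75 (SE 0.39, adjusted P = 0.0944). Against media, CMPK2 was called lower (log2FC -1.24, SE 0.38, adjusted P = 0.00803). The call was lost without siEF replicate 1 (-0.88), siEF replicate 3 (-1.20), siNEG replicate 2 (-1.25) or any 1 media replicate (-1.30 to -1.13). The annotated gene bodies overlap by 1079 bases, and no strand setting is given in the sources used here, so reads in the overlap cannot be told apart.

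ISG15 is a ubiquitin-like protein attached to other proteins during the response, and the genes grouped with it add, remove or read such modifiers. ISG15 itself was at 13.8, 15.9 and 14.2 CPM in siEF, 13.2, 15.0 and 14.4 CPM in siNEG and 14.1, 15.3 and 13.0 CPM in media. The 3 groups overlapped, and the interval of its log2FC in siEF against siNEG ran from -0.15 to 0.23 (adjusted P = 0.702). USP18 (ENSG00000184979.9) removes ISG15 from proteins and blocks signalling at the type I interferon receptor. It fell to 7.95, 7.49 and 6.27 CPM in siEF from 18.5, 19.2 and 18.1 CPM in siNEG and 19.7, 18.3 and 18.8 CPM in media, which was 38.8% of the siNEG level (log2FC -1.37, SE 0.09, adjusted P = 6.48e-10). No siEF library overlapped the controls, and the counts were fractional in all 9 libraries, so reads were shared with similar sequences. HERC6, of the family of ISG15 ligases, rose from 0.821, 0.383 and 0.673 CPM in siNEG and 0.359, 0.381 and 0.349 CPM in media to 3.29, 3.43 and 4.08 CPM in siEF, a 5.75-fold difference from siNEG (log2FC 2.52, SE 0.28, adjusted P = 4.73e-07). TRIM25, the ligase that acts on RIG-I, and the partners PARP9 and DTX3L, which share a promoter region and have gene bodies that overlap by 240 bases, had log2FC of -0.08, -0.12 and 0.16 against siNEG and did not pass.

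The last group holds IFI genes with XAF1 and CXCL10. XAF1, a pro-apoptotic antagonist of XIAP, had 24, 10 and 16 counts in siEF, 2, 1 and 0 in siNEG and 0, 2 and 0 in media. CXCL10, the chemokine that draws activated T cells, was not tested but had 8, 7 and 10 counts in siEF, 0, 1 and 0 in siNEG and 0 in every media library. XAF1 and CXCL10 rest on their siEF counts, with few or none in the controls, so no fold is given and neither is read as a result.

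IFI16, a sensor of DNA in the nucleus and the most abundant member per kilobase of exon in both control groups, was at 265 ± 6.79 CPM in siEF and 242 ± 5.70 CPM in siNEG (SD, n = 3 each). It rose by 0.13 on the log2 scale (adjusted P = 0.00984), a small difference near the threshold that did not pass without any 1 of the siEF or siNEG libraries or media replicate 2 or 3, with adjusted P up to 0.135. IFI6, a mitochondrial and endoplasmic reticulum protein that limits flaviviruses, fell by 0.63 (SE 0.15, adjusted P = 0.00107), and IFI35 had a log2FC of -0.16 that did not pass. IFI27, IFI44 and IFI44L, which are among the most inducible genes of type I interferon in blood and many tissues, were near the limit of detection. IFI44 had 1 to 9 counts and IFI44L 0 to 7 counts in any library. IFI27 had 2, 0 and 0 counts in siEF, 6, 5 and 15 in siNEG and 0, 2 and 5 in media.

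**Figure D4:**
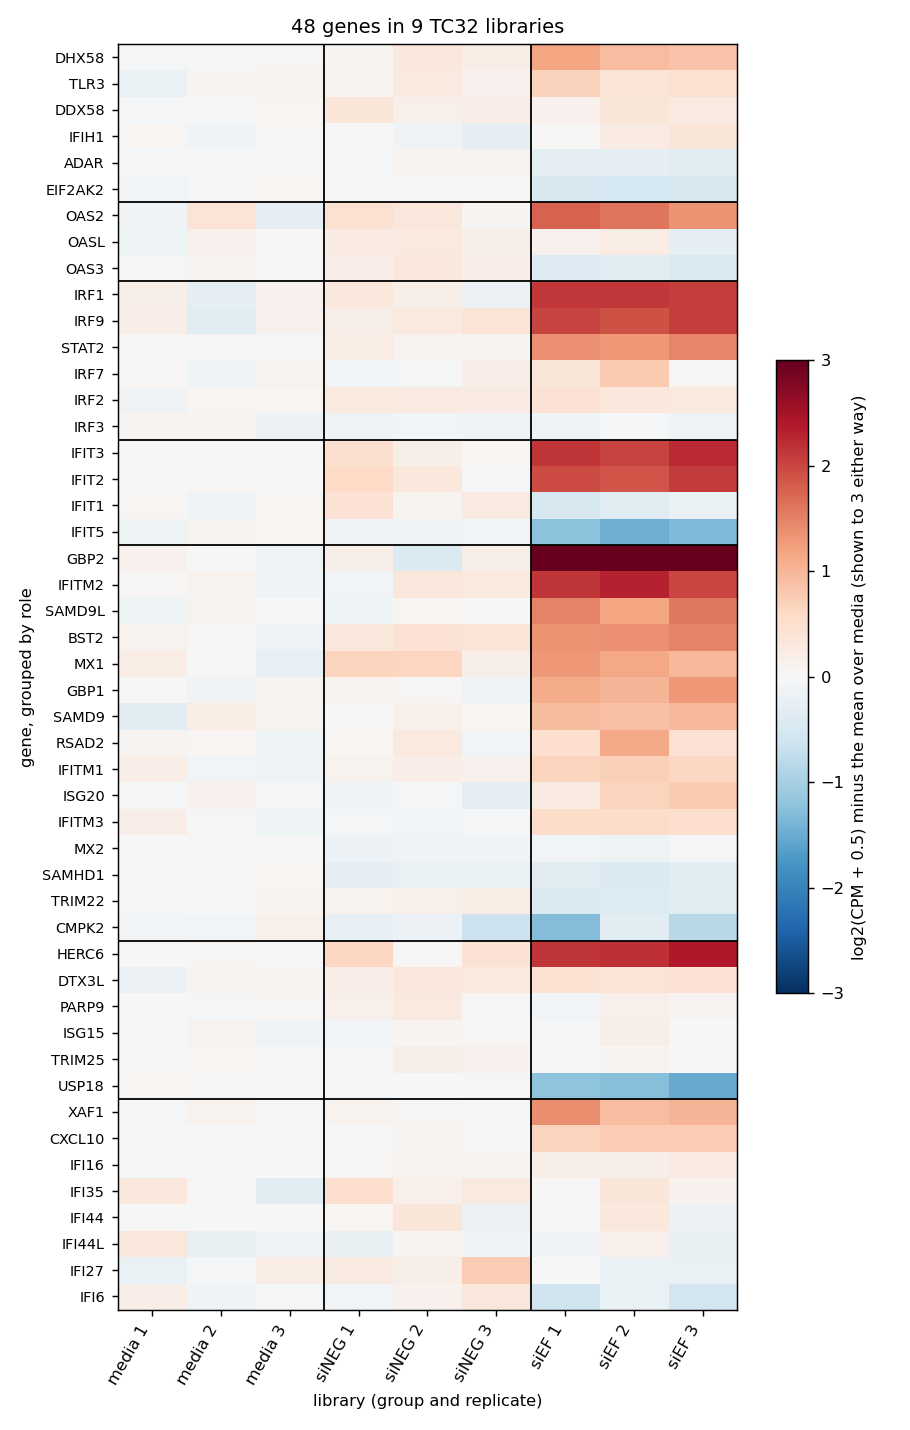
Log2(CPM + 0.5) of all 48 genes (rows, grouped by role) in the 9 libraries (columns), each gene relative to its mean over the 3 media libraries; red is higher and blue lower, and the colours stop at 3. The siEF columns hold both strong red rows (GBP2, IRF1, IFIT3, HERC6) and blue rows (USP18, IFIT5), and the siNEG columns are pale.

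The nonspecific siRNA was compared with media to ask whether transfection with an siRNA moved these genes. No member was called in either direction by edgeR, where 0.162% of all tested genes were called higher and 0.267% lower, and DESeq2 also called 0. By adjusted P alone 3 members (6.82%) were higher, where 3.83% of all tested genes were, and 0 were lower, where 5.96% were. These were BST2 with a log2FC of 0.39 (SE 0.07, adjusted P = 0.00167), IRF2 with 0.28 (SE 0.07, adjusted P = 0.00648) and OAS3 with 0.25 (SE 0.06, adjusted P = 0.00939), and none of the 3 held throughout. OAS3 did not pass with any 1 of the 9 libraries left out (adjusted P from 0.0101 to 0.0656), IRF2 did not pass without siNEG replicate 1, 2 or 3 or media replicate 1 or 2 (up to 0.0311), and BST2 did not pass without siNEG replicate 2 (0.0120). At an unadjusted P under 0.05 there were 13 members, 11 of them higher, beside 4869 of the 16093 tested genes, 2240 of them higher. The median log2FC of the members was 0.14, and that of all tested genes was -0.00121. Among the largest values that did not pass were HERC6 (0.77, interval from 0.03 to 1.51) and MX1 (0.71, interval from 0.13 to 1.28), so differences of this size in low genes were at the edge of what 3 libraries a group could show.

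In siEF against media the same siEF libraries were used as against siNEG, and the same media libraries as for siNEG against media, so the comparisons share samples and are given side by side. Of the 44 members, 16 (36.4%) were called higher, where 17.4% of all tested genes were, and 3 (6.82%) lower, where 12.5% were. By adjusted P alone, 23 (52.3%) were higher beside 33.6% of all, and 9 (20.5%) were lower beside 32.3%. The median log2FC was 0.48, against 0.04 for all tested genes. Without the genes that passed the filter only through siEF, 14 of 42 (33.3%) were called higher beside 13.8% of all, and 3 (7.14%) were lower beside 13.2%. RSAD2 aside, MX1 and DHX58 (1.14) were called only here among the higher genes, CMPK2 only here among the lower, and ISG20, with a log2FC of 1.05 and an adjusted P of 0.0200, only against siNEG. The difference between the 2 comparisons is itself siNEG against media, in which none of these genes passed. GBP2 (4.79 against media and 4.80 against siNEG), IRF1 (2.20 and 2.08), GBP1 (1.18 and 1.17), SAMD9L (1.60 and 1.62), USP18 (-1.39 and -1.37) and EIF2AK2 (-0.50 and -0.50) had nearly the same values against either control. OAS3 (-0.39 and -0.63), BST2 (1.43 and 1.04) and HERC6 (3.29 and 2.52) had values further apart.

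The remaining genes of the pathway were counted from lists of ligands, receptors, adaptors and inhibitors. All 21 interferon genes of the list (type I, II and III) had 0 counts in all 9 libraries, which allows up to 3 counts a library, or between 0.0884 and 0.147 CPM. All 8 receptor and kinase genes were tested, and in siEF against siNEG 2 were called higher and none lower, where 17.1% and 11.7% of all tested genes were. IFNGR1, the ligand-binding chain of the interferon gamma receptor, was at 94.8, 87.0 and 93.3 CPM in siEF and 39.7, 36.2 and 36.9 CPM in siNEG (log2FC 1.29, SE 0.06, adjusted P = 1.61e-11), and IL10RB, shared by the lambda interferon and interleukin 10 receptors, had a log2FC of 1.41. JAK1, the kinase common to these receptors, fell by 0.80 on the log2 scale, IFNAR2 fell by 0.73 and TYK2 fell by 0.42, past the adjusted P alone.

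Of the 10 adaptors and kinases below the sensors, 9 were tested, 2 were called higher and 1 lower, beside the same shares of all genes. CGAS was not tested, with 0 counts in each siEF library, 0, 0 and 3 in siNEG and 0, 1 and 0 in media. TMEM173, the gene of STING, which relays signals from cytoplasmic DNA, was at 115, 118 and 114 CPM in siEF and 21.9, 22.5 and 22.6 CPM in siNEG (log2FC 2.37, SE 0.06, adjusted P = 5.69e-15). IKBKE, a kinase of IRF3 and IRF7, was called higher (1.19), TRAF3 was called lower (-1.18), and MAVS, the adaptor of RIG-I and MDA5, rose by 0.71 by adjusted P alone. Of the 6 inhibitors, all tested, 3 were called higher and none lower, where 17.1% and 11.7% of all tested genes were. SOCS1, which blocks JAK kinases, had 202, 144 and 259 counts in siEF, 11, 14 and 7 in siNEG and 3, 11 and 3 in media (log2FC against siNEG 4.54, SE 0.29, adjusted P = 4.47e-10). SOCS3 had a log2FC of 1.56. PTPN6 had 23, 9 and 35 counts in siEF, 7, 9 and 3 in siNEG and 11, 6 and 4 in media. It passed the filter only through siEF, and without such genes 2 of 5 inhibitors were called higher beside 13.6% of all. No gene of these 3 tested lists was called in siNEG against media, with medians of 0.02, 0.04 and -0.02 for receptors, adaptors and inhibitors.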

How the data were processed

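RNA-seq of 9 TC32 libraries (siEF, siNEG and media, 3 biological replicates each, from the sample titles) was analysed. The authors mapped reads to hg38 with STAR and deposited the expected counts per gene that RSEM estimated, per library and unscaled, and the submitters' processing notes also name cutadapt 2.10, FastQC and DESeq2 1.32.0. Annotation release and strand setting are not given in the sources used here. The labels name a small RNA library kit beside polyA RNA. All 9 value columns were used. Total expected counts were between 20727706 and 33134581 per library.

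After rounding of the expected counts, edgeR 4.0.16 (R 4.3.3) was used for the filter on low counts (filterByExpr, 16093 genes), TMM factors and quasi-likelihood tests, in 1 fit over 9 libraries, with Benjamini-Hochberg adjustment over all genes. A standard error is the log2 fold change over the square root of F. CPM use TMM-scaled library sizes. The test was tried on simulated counts first. Genes called in any comparison, the sensors, the oligoadenylate synthetases, STAT2 and IRF9 were given by library, and the rest by level or log2 fold change. Values of IFI27, IFI44, IFI44L, CXCL10, ISG15, IFNGR1, TMEM173, SOCS1, PTPN6, IL3RA and TCF4 by library or range were added after they were seen, as were the counts without genes that passed the filter only through siEF (under 3 of the 6 control libraries at its limit). Members and lists were chosen with earlier results of these data known. 1 leukocyte marker is not reported here. Positions and exon lengths came from GENCODE on GRCh38 and promoters from RefSeq. The alternatives were DESeq2 1.42.0, RLE or upper quartile scaling, no filter, a stricter filter (10 counts or more in each library), fits on the 6 libraries of a comparison, a replicate block, and the omission of each library. Figures were drawn with matplotlib 3.10.9 (Python 3.11.15).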

Additional observations from a re-analysis of the deposited data

How the results depend on the processing

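When single libraries were left out, the called counts were 12 to 15 higher and 2 lower in siEF against siNEG, and 15 to 17 and 2 to 3 in siEF against media. Under the other alternatives they were 12 to 14 and 2 to 3, and 14 to 17 and 2 to 3. In the omissions, XAF1 was among the genes called higher. CXCL10 also passed the filter in 7 of the 9 omissions, which made 45 tested members. In all 7 it also passed the adjusted P in siEF against either control (up to 0.00448 against siNEG). With DESeq2 and with no filter 48 members were tested, so these counts can hold genes that the fit reported did not test. No counts without XAF1 and CXCL10 were made under the alternatives, so the ranges alone do not show how stable the other calls were. By adjusted P alone, siEF against siNEG gave 17 to 22 higher and 7 to 8 lower with a library left out, and 18 to 23 and 8 to 9 otherwise. In siNEG against media 0 members were called under every alternative, and the number higher by adjusted P alone was 0 to 2 with a library left out and 2 to 4 otherwise. With a replicate block the called counts were 14 and 2 against siNEG and 16 and 2 against media, where CMPK2 (-1.27) lost its call. Deviations of libraries with the same number correlated between -0.0875 and 0.0482, and the block changed no other call. These correlations cannot show whether libraries with the same number were prepared together. BST2 lost its call with no filter (0.999), ISG20 with DESeq2 (1.42), and, against media, CMPK2 with upper quartile scaling (-1.14). RSAD2, which is not read as a result, was counted as called against media in the fit reported but not with DESeq2 or with no filter. The cause was not tested. The members' median log2 fold change against siNEG ran from 0.22 with no filter to 0.44 with upper quartile scaling, which put the median of all genes at 0.13. For genes with few counts, such as RSAD2, CMPK2 and XAF1, the depth limited what could be shown.

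Over the 44 tested members and the 3 comparisons, 52 of 2097 values under the alternatives had the other sign, and none of these passed the test, nor did their values in the fit reported. For the 27 genes given by library they were the following. In siEF against siNEG, DDX58 was -0.000284 with DESeq2 and -0.024 with no filter, and ran from -0.044 to 0.078 with a library left out. In siNEG against media, EIF2AK2 was 0.000718 with DESeq2, 0.00109 with RLE scaling, 0.0112 with upper quartile scaling, 0.00482 with no filter, 0.0104 with the stricter filter and 0.00118 with only the 6 libraries. With a library left out there, EIF2AK2 ran from -0.047 to 0.037, GBP1 from -0.049 to 0.064, GBP2 from -0.15 to 0.24, IRF1 from -0.028 to 0.26, RSAD2 from -0.049 to 0.67, SAMD9L from -0.10 to 0.049, USP18 from -0.052 to 0.00212 and XAF1 from -0.41 to 3.04. OASL ran from -0.12 to 0.29 in siEF against media.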
